A study of Mus musculus with 13 samples.

Results

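The first mapped 2 Mb of each mouse autosome, which lie beside the centromere, were examined in peak lists of 2 repressive histone marks from mouse embryonic stem cells. The members were all peaks that start from 3 Mb to below 5 Mb on chromosomes 1 to 19 of build mm9, since that assembly holds no sequence in the first 3 Mb. They numbered 4783 of the 185431 peaks in the 8 lists, with 3840 in the H3K9me3 lists, 564 in the tamoxifen H3K27me3 lists and 379 in the untreated H3K27me3 lists. No autosomal peak started before 3 Mb and 4 peaks crossed the border at 5 Mb. The next 10 Mb, from 5 to 15 Mb, and the whole chromosome from 3 Mb to its last peak served for comparison.

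The cells were embryonic stem cells of strain J1 with an inducible knockout of Setdb1, grown feeder-free on gelatin in medium with serum and LIF. The lists came from H3K9me3 in untreated cells (n = 4), H3K27me3 after 2.5 µM tamoxifen, which induces loss of Setdb1 (n = 2), and H3K27me3 in untreated cells (n = 2). All groups carry the inducible knockout, and the protocol names DMSO as the solvent control while the labels of the later libraries call the untreated cells simply not treated. None of the sources used here gives the recombinase that tamoxifen activates, the time on tamoxifen or the number of clones. H3K9me3 replicate 4 has no antibody in its label and was grouped by its title. Inputs (5 samples) were not analysed here, nor was H3K9me3 in tamoxifen-treated cells. Peak lists hold no expression, so neither the cell type nor the loss of Setdb1 could be checked. Nothing says that libraries came from separate cultures, so their spread may be technical.

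Mouse chromosomes have the centromere at one end, so the assembled sequence starts close to it. The centromere is built of minor satellite and is flanked by long arrays of major satellite, which form the bright pericentromeric spots of mouse nuclei. There H3K9me3 is placed mainly by the Suv39h enzymes and bound by HP1, whereas Setdb1 places H3K9me3 mainly at retroelements in embryonic stem cells. H3K27me3 is the mark of Polycomb repressive complex 2 and lies mostly at CpG-rich promoters of developmental genes. In cells that lack the Suv39h enzymes it has been seen at the major satellite.

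H3K9me3 was denser in this stretch than farther along the chromosome in all 4 lists. Its peaks covered 48.3, 37.3, 52.1 and 44.5 kb per Mb of the first mapped 2 Mb in replicates 1 to 4, against 31.5, 24.4, 35.9 and 29.7 kb per Mb of the next 10 Mb and 19.6, 14.7, 22.2 and 17.1 kb per Mb of the whole chromosome. Each list thus stood highest beside the centromere and lowest over the chromosome as a whole, and the values of the 3 stretches did not overlap between lists. The ratio to the next 10 Mb of the same list was 1.502 ± 0.0383 (SD, n = 4) and ranged from 1.45 to 1.53. As a log2 ratio it was 0.59 ± 0.037, and a two-sided exact sign-flip permutation test over the 4 lists gave p = 0.13, which is the smallest that 4 lists allow. Against the whole chromosome the ratio was 2.49 ± 0.107 (n = 4), with the same exact p. The stretch made up 1.57% of the autosomal length and held 3.70% to 4.09% of the autosomal bases under H3K9me3 peaks. The lists hold no peak heights and their read depth is unknown, so these values give how much of the sequence was called, not how strong the mark was.

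**Figure D1:**
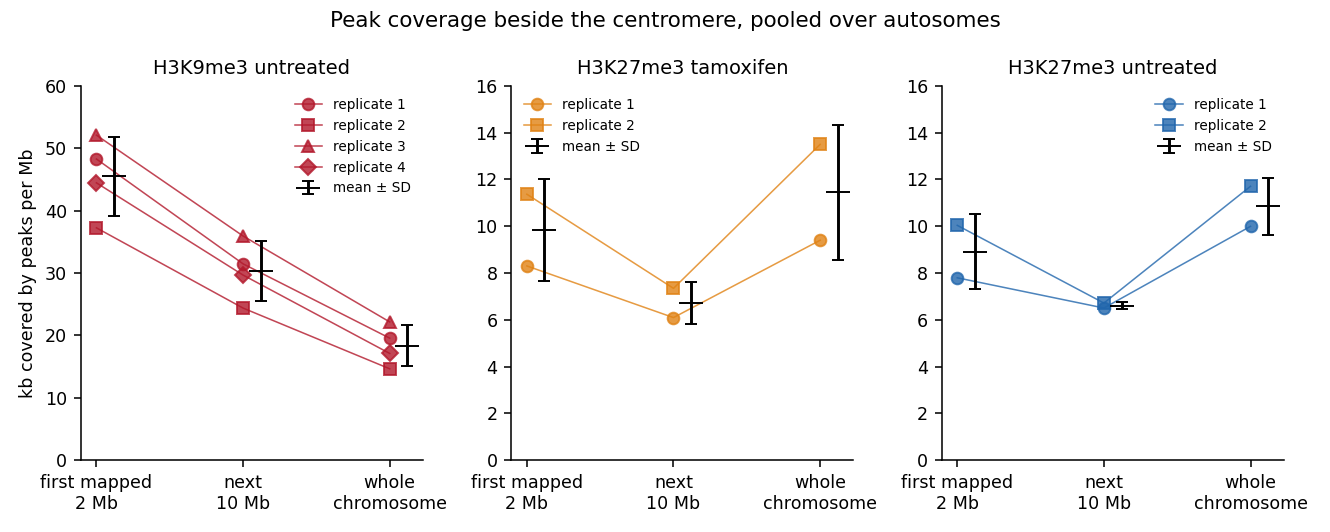
Bases under peaks, in kb per Mb, in the first mapped 2 Mb, the next 10 Mb and the whole chromosome, pooled over 19 autosomes; each line is 1 list and black bars give the mean and SD. All 4 H3K9me3 lists step down from left to right, while the 4 H3K27me3 lists (drawn on a smaller axis) have their lowest value in the next 10 Mb and their highest over the whole chromosome.

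The higher coverage came with more peaks and with slightly wider ones. H3K9me3 peaks numbered 15.6, 24.6, 32.6 and 28.3 per Mb in the first mapped 2 Mb of replicates 1 to 4, against 10.9, 17.7, 24.3 and 20.8 per Mb in the next 10 Mb. The ratio of peak numbers was 1.38 ± 0.0413 (SD, n = 4). Median peak widths were 2222.5, 1048.5, 1049 and 981.5 bp, against 2049, 927, 975 and 951 bp in the next 10 Mb, wider by 0.11 ± 0.054 on the log2 scale (two-sided exact sign-flip permutation p = 0.13). Replicate 1, the only H3K9me3 list called with the older MACS2 version, had the fewest and the widest peaks in both stretches. Peaks of 10 kb or wider numbered 14, 3, 6 and 7 beside the centromere.

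Within these 2 Mb, H3K9me3 was densest next to the first mapped base. Coverage of the first 250 kb was 83.9, 51.1, 72.1 and 61.6 kb per Mb in replicates 1 to 4, a mean of 67.2 ± 14.0 (SD, n = 4). The last 250 kb before 5 Mb had 45.6 ± 6.64 kb per Mb, and the lowest of the 8 bins, from 1.25 to 1.5 Mb after the first mapped base, had 33.7 ± 5.29 (n = 4 each). Every list was higher in the first bin than in each of these 2 later bins. Without chromosome 9, whose first bases are described below, the first 250 kb still had 77.7, 49.7, 71.0 and 59.9 kb per Mb. H3K9me3 peaks began near the edge on most chromosomes: a peak lay within 40 kb of the first mapped base on 17, 15, 15 and 16 of the 19 autosomes in replicates 1 to 4. The 49 later stretches of 40 kb up to 5 Mb held the start of a peak on 7.53, 8.90, 10.5 and 9.94 autosomes on average. No later stretch reached the first one in replicates 1 and 2, while 2 did in replicate 3 and 1 did in replicate 4. In the H3K27me3 lists the first 40 kb held a peak on 2 and 3 autosomes after tamoxifen and on 2 and 2 in untreated cells, near the means of the later stretches, 2.53 and 3.22 after tamoxifen and 1.45 and 2.82 in untreated cells.

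**Figure D2:**
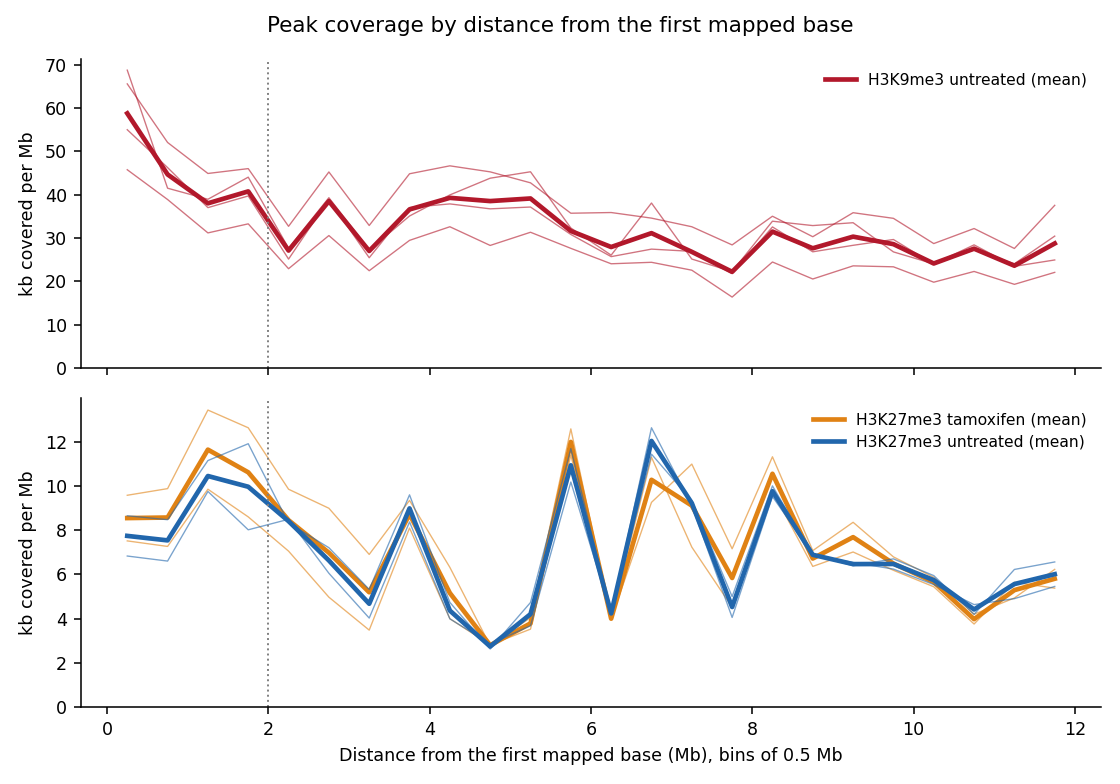
Bases under peaks, in kb per Mb, in bins of 0.5 Mb by distance from the first mapped base, pooled over 19 autosomes; thin lines are single lists, thick lines group means, and the dotted line marks 2 Mb. H3K9me3 starts at 58.7 kb per Mb and stays between 22.2 and 44.6 in all later bins, while H3K27me3 shows no such start.

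Chromosomes differed widely. H3K9me3 covered more of the first mapped 2 Mb than of the next 10 Mb in all 4 lists on 13 of the 19 autosomes, and in none of the lists on chromosomes 1, 11, 14, 17 and 19. Chromosome 7 was above in replicates 2 and 4 only. The highest levels were on chromosome 8, at 103 ± 12.8 kb per Mb against 23.4 in the next 10 Mb, on chromosome 13, at 97.9 ± 12.1 against 32.7, and on chromosome 9, at 75.2 ± 13.8 against 42.7 (SD over 4 lists). These 3 chromosomes held 31.9% of the H3K9me3 bases in the stretch. The lowest were chromosome 19, at 12.2 ± 3.57 against 27.4, chromosome 17, at 9.74 ± 2.30 against 21.1, and chromosome 14. The lists ranked the chromosomes alike, with Spearman's rho of 0.914 to 0.983 over 19 chromosomes for the 6 pairs of lists, given here as a description.

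Chromosome 14 was the exception to this likeness. Replicate 1 had 21 peaks there, over 23.8 kb per Mb, while replicates 2, 3 and 4 had 1, 0 and 1 peaks. The peaks of replicate 1 lay between 3098529 and 4908392 and measured up to 7132 bp. The single peaks of replicates 2 and 4 measured 195 and 919 bp. In H3K27me3 lists chromosome 14 had 0 and 9 peaks after tamoxifen and 0 and 5 in untreated cells, with the peaks in the lists called with MACS2 2.1.0 for that mark. The part of the calling version in this was not tested.

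**Figure D3:**
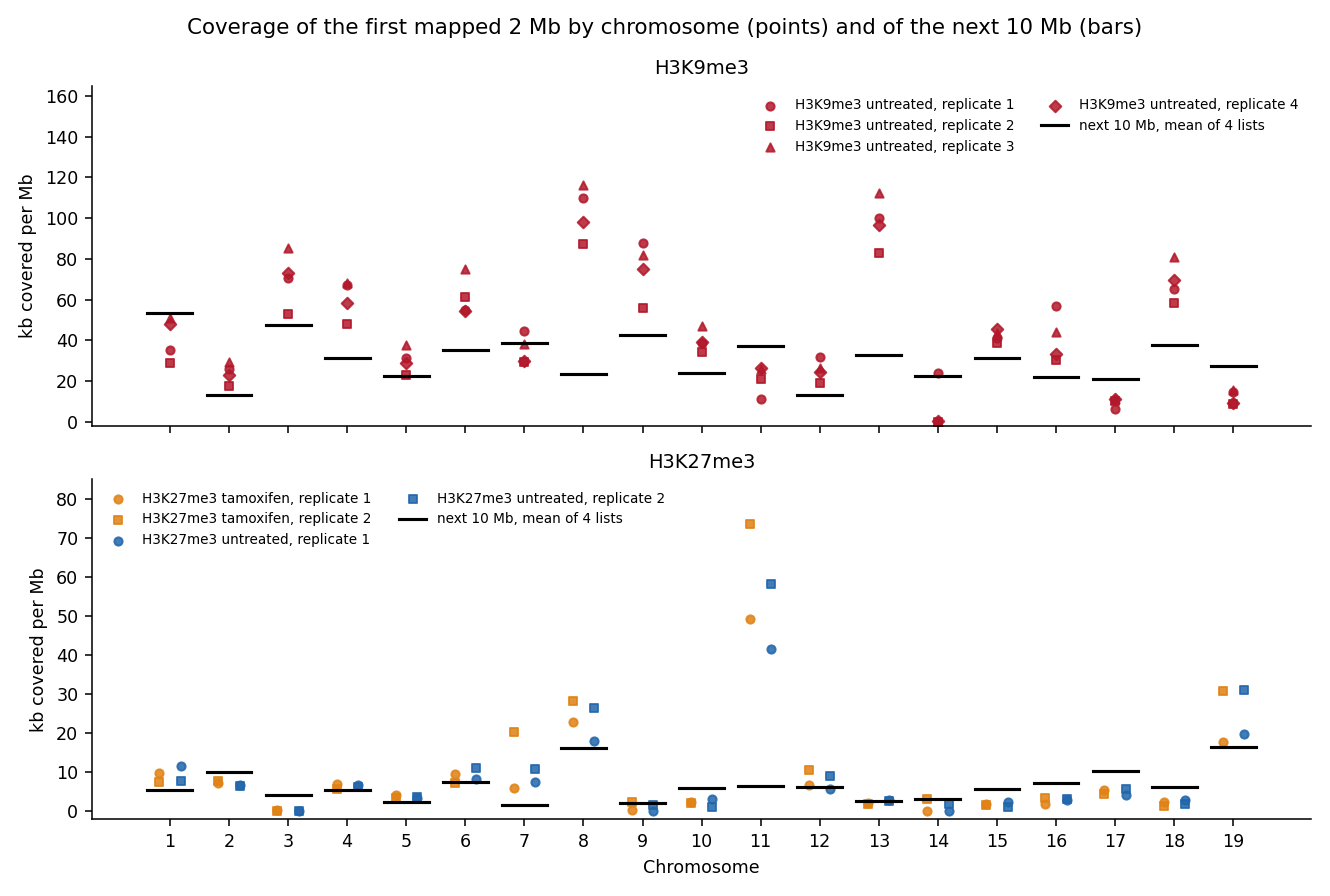
Bases under peaks, in kb per Mb, of the first mapped 2 Mb for each autosome and list (points) and of the next 10 Mb (black bars, mean of 4 lists). H3K9me3 points lie above the bar on most chromosomes, most of all on 8 and 13. H3K27me3 is highest on chromosome 11, followed by 19 and 8. All H3K27me3 points also lie above the bar on chromosomes 1, 4, 5 and 7.

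Merging the 4 H3K9me3 lists gave 1396 regions that start in the first mapped 2 Mb, of which 393, or 28.2%, were found in every list. Over all autosomes this share was 21.2%, and in the next 10 Mb it was 24.9%, at 1362 of 5475. Shared regions had a median width of 3854 bp beside the centromere, against 3481.5 bp in the next 10 Mb and 3337 bp over all autosomes. Replicate 1 decided many of these calls: without it, 678 regions were held by the remaining 3 lists. The lists shared bases with a mean Jaccard index of 0.464 in the first mapped 2 Mb, 0.440 in the next 10 Mb and 0.406 over all autosomes (6 pairs each).

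The widest shared H3K9me3 region started at the first mapped base of chromosome 9 (chr9:3000007-3039379, 39373 bp). Replicate 1 called it as a single peak over 97.3% of its length, and replicates 2, 3 and 4 as 10, 9 and 10 separate peaks over 26.3%, 23.6% and 25.6%. Chromosome 13 held the next 2, at 19440 bp (chr13:3416880-3436319) and 19145 bp (chr13:3376534-3395678). The lists covered 67.6% to 92.1% of the 19440 bp region and 84.3% to 95.3% of the 19145 bp region. The fourth lay on chromosome 2 (chr2:4861314-4878500, 17187 bp), where coverage was 66.6% to 95.7%, and the fifth on chromosome 8 (chr8:4569507-4585783, 16277 bp), where replicate 1 covered 98.3% and the others 62.9% to 65.9%. The other 5 of the 10 widest lay on chromosomes 6, 9, 6, 18 and 8 and measured 14185 to 15133 bp. None of the 10 was covered by H3K27me3 in all 4 lists of that mark.

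Pooled over the autosomes, H3K27me3 shared this pattern against the next 10 Mb but not against the whole chromosome. Its peaks covered 8.31 and 11.4 kb per Mb of the first mapped 2 Mb after tamoxifen and 7.80 and 10.0 kb per Mb in untreated cells. In the next 10 Mb the values were 6.10 and 7.35 kb per Mb after tamoxifen and 6.51 and 6.72 kb per Mb in untreated cells, and over the whole chromosome 9.40 and 13.5 after tamoxifen and 10.0 and 11.7 in untreated cells. The stretch beside the centromere thus stood above the next 10 Mb and below the whole chromosome in all 4 lists. Chromosome 11 held 31.3% and 34.02% of the H3K27me3 bases of the stretch after tamoxifen and 28.1% and 30.6% in untreated cells. Without it the log2 ratio to the next 10 Mb was 0.041 after tamoxifen and -0.0022 in untreated cells, against 0.54 and 0.42 with it (means of 2 lists each). By number of peaks, chromosome 11 included, the ratio to the next 10 Mb was 1.48 and 1.64 after tamoxifen. In untreated cells it was 1.45 and 1.76. Each of these lay above the highest H3K9me3 ratio of peak numbers, 1.435.

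On chromosome 11 H3K27me3 covered 49.3 and 73.5 kb per Mb of the first mapped 2 Mb after tamoxifen and 41.6 and 58.3 kb per Mb in untreated cells, while the mean over the next 10 Mb was 6.36 kb per Mb after tamoxifen and 6.65 kb per Mb in untreated cells. Chromosome 19 followed, with 24.9 ± 7.06 kb per Mb over the 4 lists, and chromosome 8, with 23.9 ± 4.48, against 16.4 and 16.2 in the next 10 Mb. Set against the next 10 Mb, chromosome 7 differed more, an observation made after its values were seen: it had 5.95 and 20.4 kb per Mb after tamoxifen and 7.56 and 10.96 kb per Mb in untreated cells, against 1.69 in the next 10 Mb (mean of 4 lists). The 3 lowest chromosomes were 14, 9 and 3, at 1.24, 1.15 and 0.0749 kb per Mb, and on chromosome 3 a single list had a peak. Across the 19 chromosomes the mean H3K9me3 and H3K27me3 coverage of the stretch had a Spearman's rho of -0.290, a description of chromosomes measured in the same libraries.

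Both marks were set side by side in untreated cells. H3K9me3 covered 45.5 ± 6.34 kb per Mb of the first mapped 2 Mb (SD, n = 4) and H3K27me3 8.92 ± 1.59 kb per Mb (n = 2), and all H3K9me3 lists lay above both H3K27me3 lists (two-sided exact permutation p = 0.13, the smallest that 4 lists against 2 allow). Relative to the whole chromosome the ratios were 2.49 ± 0.107 for H3K9me3 (n = 4) and 0.819 ± 0.0547 for H3K27me3 (n = 2), again without overlap (difference of 1.605 on the log2 scale, exact permutation p = 0.13). Relative to the next 10 Mb they were 1.502 ± 0.0383 (n = 4) and 1.35 ± 0.209 (n = 2) and overlapped, with a log2 difference of 0.17 (exact permutation p = 0.267). That difference was 0.36 between the lists of the older MACS2 version and -0.0029 between those of the newer, and it ranged from 0.0071 to 0.33 when 1 list was left out. It was larger, and the groups did not overlap, for 3 to 4 Mb (0.57) and without chromosome 11 (0.65; exact permutation p = 0.13 each). By number of peaks it turned to -0.21, also without overlap (exact permutation p = 0.13).

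Tamoxifen lists covered 9.84 ± 2.17 kb per Mb of the first mapped 2 Mb with H3K27me3 and untreated lists 8.92 ± 1.59 (SD, n = 2 each), a difference within the spread of the lists (exact permutation test, two-sided, p = 0.667; 2 lists against 2 cannot go below 0.33). Within replicate 1 tamoxifen was higher by 0.507 kb per Mb and within replicate 2 by 1.33. Leaving out tamoxifen replicate 2 or untreated replicate 1 turned the difference round, to -0.614 and -0.202 kb per Mb. By chromosome, tamoxifen coverage was above the untreated list of the same replicate number in both comparisons on 5 of the 19 autosomes, below it on 4 and mixed on 10.

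Merging the 4 H3K27me3 lists gave 464 regions that start in the stretch. Of these 73, 15.7%, held a peak in all 4 lists and are called kept, against 15.2% over all autosomes. A further 14, 3.02%, held a peak in both tamoxifen lists and in no untreated one, against 2.18% over all autosomes, and none held a peak in both untreated lists and no tamoxifen one, against 0.277%. A count of 0 among 464 would allow a share of up to 0.647% if the regions were independent. They share the same 4 lists, so this limit is rough, and no shortage of lost regions was detectable. The shares were near the background in each case. The count gained changed with the library left out: it was 151 without tamoxifen replicate 1, 77 without tamoxifen replicate 2 and 37 without untreated replicate 2. Leaving out untreated replicate 1 gave 15. The count lost was 5, 2, 77 and 8 in these settings, taken in the order tamoxifen replicates 1 and 2, untreated replicates 1 and 2. Leaving out a list loosens the rules for gained and lost, so a rise in these counts follows largely from the rules. Dividing the same lists by MACS2 version, 47 of the 464 regions were in both lists of the newer version and neither of the older, and 3 the reverse. The crossed division gave 16 regions in tamoxifen replicate 1 and untreated replicate 2 alone, and 0 in the other 2 lists alone. The lists of the newer version had more peaks in each state. None of the 14 gained regions overlapped an H3K9me3 peak of any list, where 23 of all 464 regions, 4.96%, did. Chromosome 11 held 5 of the 14, and 120 of the 464, 25.9%. The widest was on chromosome 11 (chr11:3892136-3894085, 1950 bp), with 62.6% and 55.0% covered by tamoxifen replicates 1 and 2, followed by another on chromosome 11 (chr11:3790812-3792478, 1667 bp), with 11.3% and 100% covered, and 1 on chromosome 6 (chr6:4604278-4605744, 1467 bp), with 43.0% and 84.5%.

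The widest kept H3K27me3 region lay 32.0 kb from the first mapped base of chromosome 11 (chr11:3032016-3046423, 14408 bp), and 51.8% and 77.3% of it were covered after tamoxifen, against 30.9% and 78.8% in untreated cells. The second lay on chromosome 1 (chr1:4477607-4490930, 13324 bp) and was a single peak in all 4 lists, over 96.9% and 74.1% after tamoxifen and 99.4% and 91.2% in untreated cells. The third was on chromosome 8 (chr8:4201259-4213442, 12184 bp), the fourth on chromosome 11 (chr11:3054800-3066851, 12052 bp) and the fifth on chromosome 19 (chr19:4983092-4993193, 10102 bp). Of the 73 kept regions 18 were on chromosome 11, as were 120 of all 464 H3K27me3 regions of the stretch (25.9%).

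Sites called for both marks were few, and a single site appeared in all 8 lists. Of 1831 regions merged over the 8 lists, 1370 held H3K9me3 peaks alone, 441 H3K27me3 peaks alone and 20 held both, which is 1.09% against 1.02% over all autosomes. In untreated lists alone 15 of 1644 regions, 0.912%, held both marks, against 0.747% over all autosomes. The 1 region held by all 8 lists is 0.0546% of 1831, against 0.0472% over all autosomes, where 38 such regions were found. The same site was the only one held by all 6 untreated lists, where the background was 0.0544%. All of these shares were near the background. Without H3K9me3 replicate 1, the regions held by every remaining list numbered 3, both among all lists and among untreated ones. Without untreated H3K27me3 replicate 1 the count among untreated lists was also 3, and without untreated H3K27me3 replicate 2 the untreated regions with both marks numbered 7.

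That site lay 89.2 kb from the first mapped base of chromosome 11 (chr11:3089224-3097057, 7834 bp). The H3K9me3 lists covered 48.9%, 50.0%, 76.0% and 85.5% of it in replicates 1 to 4. The H3K27me3 lists covered 41.2% and 75.2% after tamoxifen and 63.8% and 51.4% in untreated cells. Bases under both marks came to 5911, the most of the 20 regions. In the first 200 kb of chromosome 11, H3K27me3 covered 29.5 and 30.9 kb after tamoxifen and 30.3 and 31.2 kb in untreated cells. Beyond the site, no H3K27me3 list had a further peak before 183 kb. H3K9me3 covered 13.4, 18.6, 26.2 and 26.1 kb of the same 200 kb. In all, 9 of the 20 regions with both marks lay on chromosome 11, as did 155 of all 1831 regions (8.46%) and 119 of the 461 that held H3K27me3 (25.8%). Within 200 kb of the first mapped base lay 8 of the 20, against 239 of 1831 (13.1%) and 28 of 461 (6.07%). These counts are descriptions and were not tested.

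**Figure D4:**
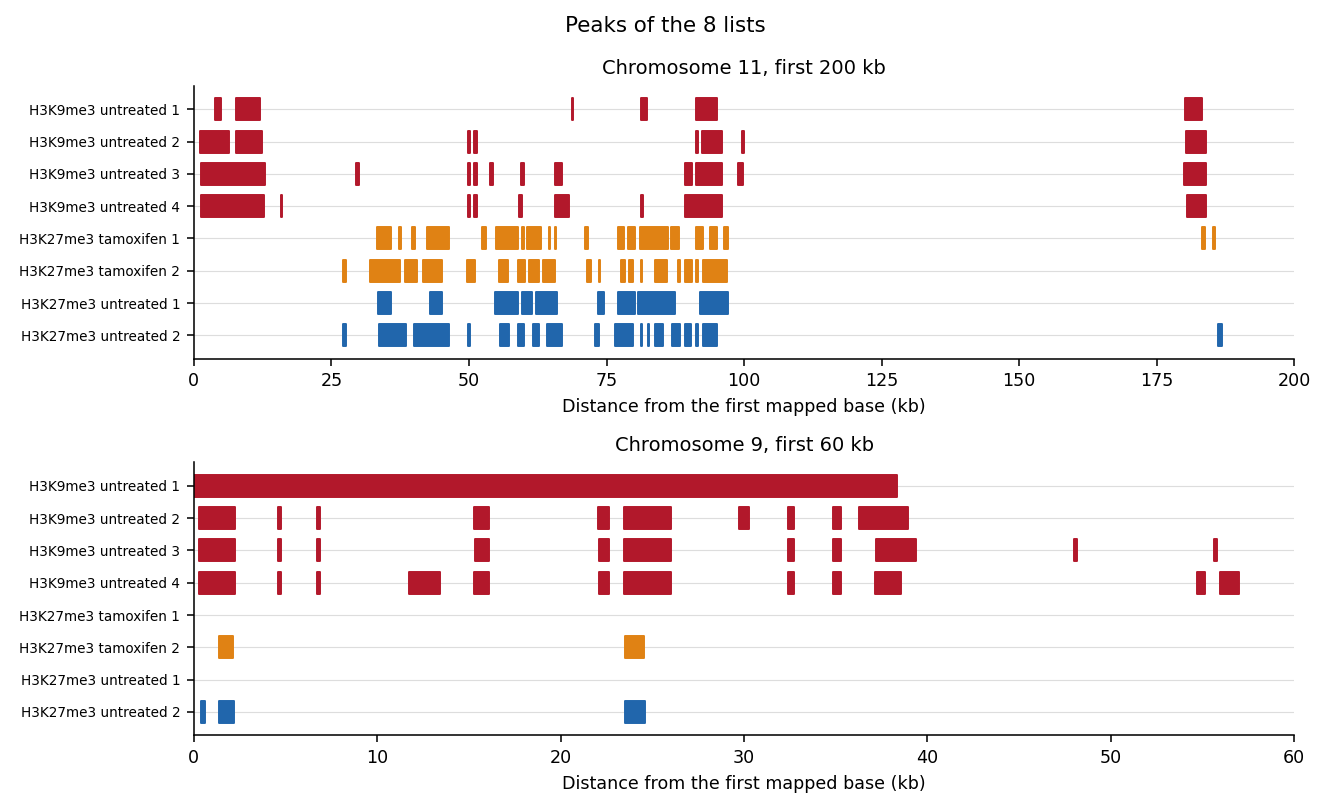
Peaks of the 8 lists along the first 200 kb of chromosome 11 (top) and the first 60 kb of chromosome 9 (bottom), by distance from the first mapped base in kb; each bar is a peak. On chromosome 11 the site near 90 kb is marked in all lists and is followed by a gap in H3K27me3, and on chromosome 9 only the second H3K27me3 list of each state has peaks.

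The first bases of chromosome 9 gave a different picture. H3K27me3 peaks there came from replicate 2 of each state alone, 2 peaks over 1.83 kb after tamoxifen and 3 peaks over 2.16 kb in untreated cells, and both replicates 1 had none in the first 60 kb. Bases under both marks in the widest shared H3K9me3 region came to 2163. Of the 20 regions with both marks, 9 had H3K27me3 only in lists of the newer MACS2 version and 2 only in lists of the older. The same count was not made over all 464 H3K27me3 regions, of which 60.3% were found in 1 list alone, so 9 and 2 have no background here. Lists of the newer version had more H3K27me3 peaks in the stretch, 323 and 271 against 241 and 108 (tamoxifen and untreated). H3K27me3 in both newer lists and neither older one was found at 4 of the 20, and at 47 of all 464 H3K27me3 regions. The part of the calling version in this was not tested.

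The other regions with both marks were held by fewer lists and shared fewer bases. The second by shared bases, on chromosome 8 (chr8:3991494-3997594, 6101 bp), was under H3K27me3 in all 4 lists and under H3K9me3 in replicates 2 and 3 only, with 3165 bases in common. The third, which takes in the fourth widest kept region (chr11:3054800-3068145), shared 2168. The fifth, on chromosome 6 (chr6:4694825-4699546, 4722 bp), was held by 7 lists, all but H3K9me3 replicate 1, and shared 1544. The median over the 20 regions was 700.5 shared bases. Of the 20, 5 were held by all 4 H3K9me3 lists and 8 by all 4 H3K27me3 lists. Among all regions of the stretch merged for each mark alone, 28.2% were held by all 4 H3K9me3 lists and 15.7% by all 4 H3K27me3 lists. The 20 were merged over 8 lists, so these shares are a rough guide.

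Counted in bases, a larger share of H3K27me3 lay under H3K9me3 here than farther along. A single H3K9me3 list overlapped 1.09% to 3.39% of the bases of a single H3K27me3 list in the first mapped 2 Mb, with a median of 2.115% over 16 pairs of lists, against 1.19% in the next 10 Mb and 0.378% over all autosomes. This order held in 16 of 16 pairs, which share lists and are not independent. The share of all sequence under H3K9me3 peaks fell along the same order, as given above, and its part in the overlap was not tested. At 37.3 to 52.1 kb per Mb of the first mapped 2 Mb, that share was larger than the share of H3K27me3 bases overlapped. These values include chromosome 11, where the site held by all 8 lists had 5911 of the 22360 bases under both marks, counted over all lists.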

How the data were processed

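Of 13 labelled chromatin immunoprecipitation sequencing samples, 8 had peak lists that were used. The authors deposited 1 list per library with 3 columns that place each peak and hold no other value or score. Replicate 1 of every group was called with MACS2 2.0.10 and later replicates with MACS2 2.1.0, after Bowtie 0.12.7 on build mm9, per the submitters' processing notes. No source used here gives the calling mode, threshold or control, and read depth is unknown. The 3 libraries without a replicate number were numbered 1.

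Bases under peaks were clipped at the borders of each stretch and pooled over the 19 autosomes. Overlapping or touching peaks were merged into regions, and a list held a region with at least 1 bp. Regions belong to the stretch in which they start. Tests were two-sided exact permutation and sign-flip tests over libraries, whose number limits every p. No pair of lists had an identical peak in the stretch. Positions count from 1. Named regions are the widest of each class and those held by every list. Regions with both marks named by their shared bases were chosen after their values were seen. Code was tested on simulated peaks with known classes. The stretch, classes and tests were chosen with earlier results of these data known. Without mm9 sequence or annotation no genes or sequences are given. Versions were Python 3.11.15, Matplotlib 3.10.9, SciPy 1.17.1, pandas 2.3.3 and NumPy 2.4.6. Alternatives covered the window, the reference stretch, peak numbers, merging, overlap, width, list size, left-out libraries and, added after seeing the data, chromosome 11.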

Additional observations from a re-analysis of the deposited data

Results flagged for a closer look

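Of 39 sets of 4 H3K9me3 values checked, 4 had a list far from the other 3, in each case replicate 1, and chance alone flags about 1 in 20. Its median peak width in the first mapped 2 Mb was 2222.5 bp, against 981.5 to 1049 bp in the others. Its coverage of that stretch of chromosome 14 was 23.8 kb per Mb, against 0 to 0.459. It covered 97.3% of the region at the start of chromosome 9, against 23.6% to 26.3%, and 98.3% of the region on chromosome 8 from 4569507, against 62.9% to 65.9%. Both regions were chosen for their width, and replicate 1 called each as a single peak over nearly all of it. Its high coverage there thus follows in part from the choice. The 39 sets share the same 4 lists, so the rate of 1 in 20 is only a rough guide.

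By bases covered, the marks differed in direction against the whole chromosome. The ratio of the first mapped 2 Mb to the whole chromosome averaged 2.49 for H3K9me3, above 1 in 4 of 4 lists, and 0.841 for H3K27me3, below 1 in 4 of 4. By number of peaks the H3K9me3 ratio averaged 2.07. The H3K27me3 ratio by number of peaks was 1.03 and 0.930 after tamoxifen and 0.992 and 1.02 in untreated cells, on both sides of 1.

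Chromosomes X and Y were outside the comparisons. From 3 to 5 Mb of chromosome X the H3K9me3 lists had 56, 32, 33 and 32 peaks in replicates 1 to 4, over 122, 14.1, 17.8 and 16.02 kb per Mb, and the 4 H3K27me3 lists had 0. On chromosome Y the H3K9me3 lists had 40, 37, 61 and 55 peaks in all, and the H3K27me3 lists had 0 and 4 after tamoxifen and 0 and 2 in untreated cells.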

How the results depend on the processing

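H3K9me3 stayed higher in the first mapped 2 Mb in 14 of 14 alternatives. The log2 ratio of coverage to the next 10 Mb was 0.46 to 0.77 over 11 of them, 0.44 to 5 to 10 Mb and 1.31 to the whole chromosome, and 0.46 by peak number. Of 175 values recomputed in all, 10 changed sign, but many of the 175 are counts, which cannot. H3K27me3 ratios changed sign in 3 of 12 alternatives in untreated cells and in 1 of 12 after tamoxifen. In untreated cells 2 of the 3 are the same value, -0.0022 without chromosome 11. H3K9me3 minus H3K27me3 changed sign in 2 of 19. Tamoxifen minus untreated did so in 2 of 15 in kb per Mb and in 2 of 17 on the log2 scale. Many other values, counts among them, changed in size. The cause was not tested. The H3K27me3 log2 ratio was -0.21 after tamoxifen and -0.29 in untreated cells against the whole chromosome, 0.34 after tamoxifen and 0.20 in untreated cells for 3 to 4 Mb, and 0.68 in untreated cells by peak number. Without chromosome 11, a choice made after seeing the data and the lowest of all chromosomes left out, it was 0.041 after tamoxifen and -0.0022 in untreated cells. By peak number H3K9me3 minus H3K27me3 was -0.21, against 0.57 for 3 to 4 Mb, 0.65 without chromosome 11, 1.6 for the whole chromosome and 0.040 for 5 to 10 Mb, and tamoxifen minus untreated -0.038.

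Replicate 1 is unnumbered in the labels of every group, so numbers pair nothing by design. With the replicate block, H3K9me3 minus H3K27me3 was 0.18 (exact sign-flip permutation p = 1.0), 0.36 within replicate 1 and -0.0029 within libraries numbered 2 and above. Tamoxifen minus untreated was 0.919 kb per Mb and 0.12 on the log2 scale with the block (exact sign-flip permutation p = 0.5 each). That is the smallest p that 2 differences allow.

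Leaving out 1 library gave tamoxifen minus untreated values of -0.614 to 2.45 kb per Mb, with -0.202 without untreated replicate 1, and of -0.042 to 0.28 on the log2 scale, the lowest again without untreated replicate 1. Regions held by all 8 lists numbered 1 to 3, by all 6 untreated lists 1 to 3, with both marks in untreated cells 7 to 16, shared H3K9me3 regions 400 to 678, gained 15 to 151 and lost 2 to 77. The rules for gained and lost are looser with 1 list left out. Merging over 1 kb gave 2 regions held by all 8 lists. Requiring 50% of a region gave 0 held by all 8 and 0 by all 6, 4 with both marks in any list and 3 in untreated lists, 170 shared H3K9me3, 37 kept and 5 lost. Peaks of 500 bp or wider gave 9 with both marks in untreated lists, 7 gained and 2 lost. An equal number of the widest peaks from each list gave 4 with both marks in any list and 4 in untreated lists, 136 shared H3K9me3, 2 gained and 2 lost. Unknown depth and the 2 calling versions limit all counts of shared, gained and lost regions.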

Other observations

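H3K27me3 in the first mapped 2 Mb was highest from 1 to 1.25 Mb after the first mapped base, at 14.5 ± 4.18 kb per Mb after tamoxifen and 11.9 ± 2.98 in untreated cells (SD, n = 2 each). In the first 250 kb, where H3K9me3 was densest, it was 8.06 ± 1.08 after tamoxifen and 7.17 ± 0.742 in untreated cells. Of the 1396 merged H3K9me3 regions, 516 were found in 1 list, 220 in 2, 267 in 3 and 393 in 4, with median widths of 482.5, 951, 1654 and 3854 bp. Merging peaks of more lists widens a region, so part of this rise follows from the merging.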
